A study of Mus musculus with 30 samples.

Results

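The glutathione S-transferases examined here are 10 mouse genes: Gsta3 and Gsta4 of the alpha class, Gstm1, Gstm3 and Gstm5 of the mu class, Gstp1 (pi), Gstt1 (theta), Gstz1 (zeta), Gstk1 (kappa) and the membrane-bound Mgst1 (microsomal). They were taken by symbol, and all 10 were found among the 48709 genes of each count table. Adult C57BL/6 mice supplied RNA of 5 tissues: liver, kidney, spleen, brain and muscle (quadriceps femoris). Each tissue has 3 libraries of wild type (WT) and 3 of Ctcf heterozygous (Ctcf+/-, "het") mice, 30 libraries in all. The controls are WT animals of that strain, and the heterozygous animals carry 1 intact copy of Ctcf, the gene of a zinc finger protein that organises chromatin loops, in every tissue. Per the series' text the tissues came from 3 mice of each genotype. No label ties a library to a mouse, so p-values measure the spread between these libraries.

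These enzymes join the tripeptide glutathione to electrophilic molecules, such as activated drugs, carcinogens and products of lipid oxidation, and the conjugates are then exported and broken down to mercapturic acids. The cytosolic classes (alpha, mu, pi, theta and zeta) work as dimers. The kappa enzyme lies in mitochondria and peroxisomes and has a separate fold, and the microsomal enzymes are trimers embedded in membranes. Liver is the classical site of conjugation, and several members are known targets of the transcription factor NRF2, which acts through antioxidant response elements. In tissue RNA, fewer cells of a type and less RNA per cell cannot be told apart.

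Libraries held 49.8 M to 131.6 M counted fragments. Ctcf itself was at 61.4% to 67.2% of its WT level in the heterozygous libraries of the 5 tissues, and the groups did not overlap in any of them. In edgeR's test of genotype its adjusted p was under 0.05 in brain only (0.0259). In the other tissues it ran from 0.107 (kidney) to 0.914 (spleen). Markers of each labelled tissue were read at high levels in that tissue. Several libraries also held traces of other tissues. Skeletal muscle markers summed to 3.27, 2.83 and 133 CPM (counts scaled to library size within the tissue) in WT kidney and 2.99, 3.84 and 164 CPM in heterozygous kidney, high in the libraries numbered 3. Pancreas markers summed to 218, 125 and 9.61 CPM in WT spleen and 14.1, 1796 and 18.3 CPM in heterozygous spleen, highest in heterozygous replicate 2. Traces that follow genotype are given beside the genes they bear on.

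Fragments that fit several places or genes were not counted, so near-identical members lose fragments. The share of a gene's 50-base transcript words that also occur in another gene was 33.7% for Gstp1, all of it with Gstp2. It was 28.8% for Gstm3 and 18.9% for Gstm1, mostly with pseudogenes (Gm8834 and Gstm2-ps1). Gstm5 shares 13.9% of its exon bases with 4933431E20Rik and Gstz1 8.29% with Pomt2, and counting took no account of strand. The words of Gsta4, Gstt1, Gstk1 and Mgst1 were unique to them. Values of Gstp1, Gstm3 and Gstm1 are therefore lower than the fragments sequenced, by an amount that is not known, and comparisons of 1 gene between libraries are less exposed than comparisons between genes.

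The sequences shown are 4 promoters, each the 250 bases before the RefSeq transcription start on GRCm38.p6, written 5′ to 3′ along the gene. Gsta3 and Gstm1 represent the alpha and mu genes that are highest in liver, and Gstp1 and Gstp2 are the neighbouring copies that share fragments. Their windows are chr1:21240335-21240584 on the plus strand, chr3:108017974-108018223 on the minus strand, chr19:4037913-4038162 on the minus strand and chr19:4042222-4042471 on the minus strand. Capitals mark the letters of the motifs searched: the antioxidant response element core TGACNNNGC, the GC box GGGCGG, the HNF1 motif GTTAAT and the CTCF core motif, on either strand, with no overlap between them.
Gsta3: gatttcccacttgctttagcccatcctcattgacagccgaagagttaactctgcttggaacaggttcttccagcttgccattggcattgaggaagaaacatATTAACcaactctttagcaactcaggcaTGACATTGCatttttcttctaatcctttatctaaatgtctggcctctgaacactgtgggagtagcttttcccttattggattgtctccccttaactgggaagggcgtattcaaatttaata
Gstm1: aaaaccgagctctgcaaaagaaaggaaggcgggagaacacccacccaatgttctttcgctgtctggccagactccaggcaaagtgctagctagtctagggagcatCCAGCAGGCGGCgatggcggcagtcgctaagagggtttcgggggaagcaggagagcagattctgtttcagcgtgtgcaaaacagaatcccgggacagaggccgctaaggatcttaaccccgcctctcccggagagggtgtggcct
Gstp1: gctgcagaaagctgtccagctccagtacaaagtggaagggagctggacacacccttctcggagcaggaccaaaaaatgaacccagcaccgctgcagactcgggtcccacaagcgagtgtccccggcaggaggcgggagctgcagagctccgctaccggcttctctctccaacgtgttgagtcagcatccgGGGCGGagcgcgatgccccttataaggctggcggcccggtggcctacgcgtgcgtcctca
Gstp2: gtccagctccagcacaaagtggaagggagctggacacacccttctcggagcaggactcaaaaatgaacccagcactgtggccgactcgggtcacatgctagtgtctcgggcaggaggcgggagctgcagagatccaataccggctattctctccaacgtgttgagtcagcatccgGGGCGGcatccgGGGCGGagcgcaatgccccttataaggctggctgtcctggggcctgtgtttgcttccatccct
In a global alignment that allowed gaps, Gstp1 and Gstp2 were identical at 207 of 250 positions (82.8%). By the same measure no other pair of the 12 promoters read was above 50%.

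RefSeq promoters were found for 9 of the 10 genes. The antioxidant response element core was present in 3 of the 9 (Gsta3, Gstm5 and Mgst1), against 10.2% of 27025 mouse promoter windows of the same length. It began 121 bases before the start in Gsta3, 42 in Gstm5 and 56 in Mgst1, there on the opposite strand. GC boxes were present in 6 of the 9, against 32.9% of all windows, and were not found in Gsta3, Gstm1 or Gstt1. The HNF1 motif, only a part of the full binding site of a liver and kidney transcription factor, was present in Gsta3 and in 6.52% of all windows. The CTCF core was present in Gstm1, 145 bases before the start, and in 2.06% of all windows. TATAAA and the HNF4 site CAAAGTCCA were in none of the 9, against 13.0% and 0.381% of all windows. These are letter matches and not measured binding sites.

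Across WT tissues the genes fell into 3 patterns: 7 were highest in liver, Gsta4 and Gstm5 were highest in kidney, and Gstp1 was highest in muscle. Levels are FPKM, fragments per exon length and library size, scaled over the 30 libraries by the trimmed mean of M-values (TMM). All 10 genes differed between the 5 WT tissues in edgeR's quasi-likelihood F-test with Benjamini-Hochberg adjustment (a gene is called at an adjusted p under 0.05), but so did 98.0% of all genes tested, so the count says little about this family. Members are therefore described by the size and order of their levels. The scaling matters here. Relative to total counts, TMM raised WT liver by 0.67 and muscle by 0.69 on the log2 scale, and lowered brain by 0.50, kidney by 0.35 and spleen by 0.49. Statements on muscle or liver against the other tissues are relative to that shift.

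**Figure D1:**
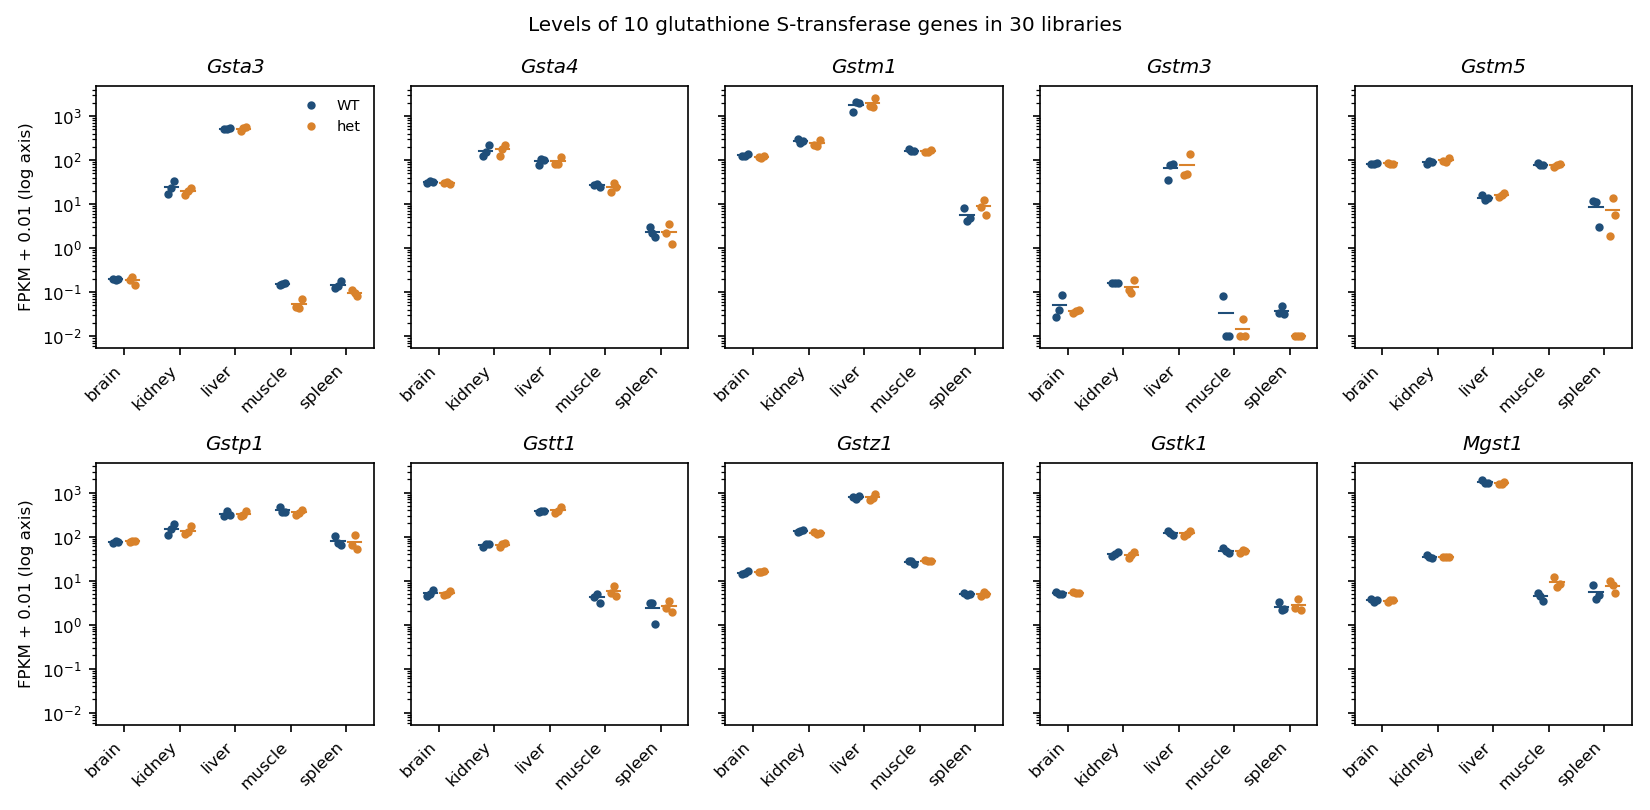
Levels of the 10 genes in 30 libraries, as FPKM + 0.01 on a log axis, by tissue. Blue points are WT and orange points heterozygous libraries, and bars are group means. Gsta3 and Gstm3 span over 3 orders of magnitude, and Gstm5 and Gstp1 vary least.

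The alpha genes had different tissue profiles. Gsta3 (chr1:21240589-21265661, plus strand), whose mouse enzyme is known for conjugating aflatoxin epoxide, was at 520.1, 517 and 523 FPKM in the WT liver libraries and 17.2, 22.9 and 33.9 FPKM in WT kidney. In brain, muscle and spleen its WT libraries were between 0.113 and 0.191 FPKM. The liver mean was 21.1 times the kidney mean, and liver held 95.4% of the summed level of the 5 tissues. Gsta4 (chr9:78191966-78209348, plus strand), which acts on the lipid oxidation product 4-hydroxynonenal, was at 123.0, 152 and 215 FPKM in WT kidney and 77.7, 104 and 102.2 FPKM in liver. Kidney exceeded liver by a log2 difference of 0.81 (SE 0.21, adjusted p = 0.00431 in edgeR). Gsta4 was also read at 31.5 ± 1.77 FPKM (SD, n = 3) in brain and 26.9 ± 2.21 FPKM in muscle, and at 2.30 ± 0.590 FPKM in spleen. Brain and muscle were not called different under TMM, and with total counts brain was called higher by 1.42 (adjusted p = 1.87e-05).

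The 3 mu genes lie within 1 cluster of 7 mu genes on chromosome 3 that spans 149 kb, yet each had its own profile. Gstm1 (chr3:108012255-108017973, minus strand), a broad-acting mu enzyme, was abundant in liver at 1217, 2059 and 1952 FPKM and lower in kidney (274 ± 28.9 FPKM), muscle (165 ± 10.7 FPKM) and brain (129 ± 8.45 FPKM; all SD, n = 3), and at 8.11, 4.04 and 4.84 FPKM in spleen. Muscle and brain were not called different for it under TMM, and with total counts brain was called higher. Gstm3 (chr3:107963696-107969283, minus strand) was nearly restricted to liver, at 35.9, 79.1 and 82.2 FPKM, which is 99.6% of its summed level. The WT kidney libraries held 24, 22 and 25 Gstm3 fragments and 0.151, 0.148 and 0.153 FPKM. WT brain held 2, 4 and 7 fragments, muscle 6, 0 and 0 and spleen 3, 6 and 4, so the order of these 3 tissues cannot be read. Gstm5 (chr3:107895821-107898686, plus strand) lies at the edge of the cluster on the opposite strand and was low in liver. It was at 83.5, 94.9 and 91.5 FPKM in kidney, 81.5, 83.2 and 86.0 FPKM in brain and 86.0, 75.4 and 76.5 FPKM in muscle, 3 tissues that overlapped and were not called different under TMM. With total counts muscle was called lower than brain, by 1.27 (adjusted p = 0.00214), and lower than kidney, by 1.21 (adjusted p = 0.00313). In liver it was only 15.8, 12.5 and 13.8 FPKM and in spleen 11.8, 11.3 and 2.99 FPKM, a pair that was also not called different (adjusted p = 0.0702 in edgeR). With total counts or DESeq2 size factors brain, not kidney, came first for Gstm5. Liver therefore held the highest level of Gstm1 and Gstm3 and one of the lowest of Gstm5.

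Gstp1 (chr19:4035407-4037921, minus strand), the pi enzyme also known as a binding partner of stress kinases, had the flattest profile apart from its lead in muscle. It was at 466, 370.3 and 365 FPKM in WT muscle, 296, 382 and 302 FPKM in liver, 108, 146 and 189 FPKM in kidney, 104, 69.8 and 66.04 FPKM in spleen and 70.5, 78.3 and 76.4 FPKM in brain. Muscle and liver were not called different (log2 difference 0.45, SE 0.21, adjusted p = 0.0792 in edgeR), nor were spleen and brain. Both muscle and liver were called above kidney under TMM. With total counts neither was, with kidney minus muscle at -0.41 (adjusted p = 0.0618 in edgeR) and kidney minus liver at -0.13 (0.558). The highest mean was 5.33 times the lowest, the smallest such ratio of the 10 genes, against 3774 for Gsta3. Its copy Gstp2 was at 92.9 ± 4.29 FPKM in WT muscle and at most 2.26 FPKM in the other tissues (SD, n = 3). Because fragments common to both copies were not counted, how much Gstp2 adds to or takes from the Gstp1 value in muscle was not tested.

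Gstt1 (chr10:75783813-75798584, minus strand), the theta enzyme that acts on small halogenated compounds, was at 352, 390.4 and 374 FPKM in WT liver, 58.0, 66.1 and 68.4 FPKM in kidney and between 1.02 and 6.13 FPKM in the libraries of the other tissues. Gstz1 (chr12:87147707-87164721, plus strand), maleylacetoacetate isomerase of tyrosine breakdown, was at 804, 729.6 and 839.9 FPKM in liver. Its order was liver, kidney (134 ± 6.24 FPKM), muscle (26.4 ± 2.55), brain (15.2 ± 1.05) and spleen (4.99 ± 0.273; SD, n = 3), with each step called. Under total counts muscle and brain changed places. Gstk1 (chr6:42245935-42250447, plus strand), the kappa enzyme, was at 137, 122 and 109 FPKM in liver, 56.2, 46.2 and 42.0 FPKM in muscle and 35.3, 40.3 and 43.6 FPKM in kidney. Muscle was above kidney under TMM and below it under total counts, so their order depends on the scaling. Brain (5.22 ± 0.291 FPKM) and spleen (2.57 ± 0.649 FPKM; SD, n = 3) had little Gstk1.

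Mgst1 (chr6:138140316-138156755, plus strand), a microsomal enzyme with transferase and peroxidase activity, was with Gstm1 the most abundant of the 10 per length in liver. The WT liver libraries held 1918, 1671 and 1607 FPKM and the WT kidney libraries 37.8, 34.0 and 32.8 FPKM, a ratio of means of 49.7. Spleen held 7.80, 3.83 and 4.70, muscle 5.31, 4.42 and 3.46 and brain 3.87, 3.27 and 3.71 FPKM. Spleen and muscle, and muscle and brain, were not called different under TMM. With total counts both pairs were called, muscle minus spleen at -1.46 (adjusted p = 2.36e-05) and brain minus muscle at 0.91 (adjusted p = 0.00153). Liver held 97.3% of the summed level.

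Of the 100 member contrasts between pairs of WT tissues, 82 were called. Kidney differed from liver for 10 of the 10 genes (54.1% of all genes tested were called), from spleen for 10 (75.5%), from brain for 9 (71.4%) and from muscle for 9 (64.4%). Liver differed from brain for 10 genes (73.2%), from muscle for 9 (64.2%) and from spleen for 9 (72.9%). Brain differed from spleen for 6 (79.8%) and muscle from spleen for 7 (75.2%). Brain and muscle had the fewest, with 3 genes called (Gstp1, Gstz1 and Gstk1, each higher in muscle) against 72.3% of all genes. That count rests on the scaling, since with total counts 9 of the 10 genes were called between brain and muscle. Under TMM no called contrast had spleen as the higher tissue. With total counts Mgst1 was called higher in spleen than in muscle, as given above, and than in brain (brain minus spleen -0.55 (adjusted p = 0.0299)), and Gsta3 higher in spleen than in muscle (muscle minus spleen -1.13 (adjusted p = 0.00134)).

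Summed per length, the 10 genes reached 5782 ± 362 FPKM in WT liver, 973 ± 99.2 in kidney, 754 ± 82.9 in muscle, 348 ± 14.8 in brain and 112 ± 30.5 in spleen (SD, n = 3). The make-up of this sum differed by tissue. In liver the mu class gave 31.2% ± 6.62, the microsomal Mgst1 30.1% ± 4.80, zeta 13.7% ± 1.53 and alpha 10.7% ± 0.444 (SD, n = 3). In kidney mu gave 37.7% ± 5.11, alpha 19.1% ± 3.68, pi 15.01% ± 2.73 and zeta 13.8% ± 0.966. Brain was dominated by mu at 60.9% ± 1.14, with pi at 21.6% ± 0.963. Muscle and spleen were dominated by the pi gene Gstp1, at 52.9% ± 1.63 and 71.5% ± 2.83, with mu at 32.4% ± 1.497 and 12.5% ± 3.29. Gsta3 was below 1 FPKM in brain, muscle and spleen, so the alpha share there is mostly Gsta4. These shares hold for the 10 chosen genes only. Over 28 genes of the wider family, alpha led mu in WT kidney (34.9% against 24.9%). The microsomal class was then 28.2% in WT spleen and 17.3% in WT muscle, against 4.80% and 0.579% over the 10 genes. Pi was 46.3% in WT spleen, and mu still led in WT brain (53.8%) and liver (32.7%).

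**Figure D2:**
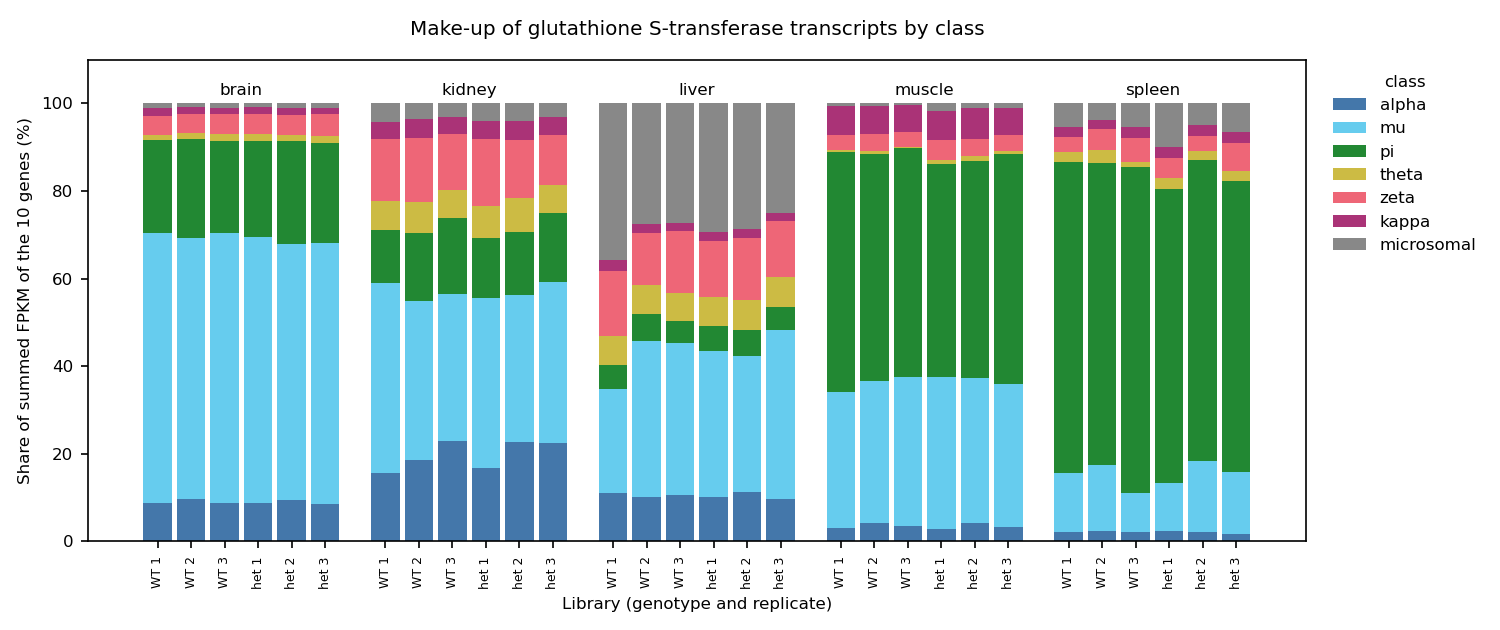
Share of each class in the summed FPKM of the 10 genes, 1 bar per library, WT and heterozygous side by side in each tissue. Microsomal and zeta segments are wide in liver, the pi segment in muscle and spleen, and the mu segment in brain.

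Some members varied together between replicates. In liver, WT replicate 1 was lowest for both Gstm1 and Gstm3, and heterozygous replicate 3 was highest for both, at 2579 and 139 FPKM. In kidney the library numbered 3 was the highest for Gsta3, Gsta4 and Gstp1 in both genotypes. These are the libraries with muscle markers given above, whose part was not tested. In spleen, Gstm5 was at 21.9, 20.8 and 5.26 CPM in WT and 3.46, 25.8 and 10.3 CPM in heterozygous libraries, low in WT replicate 3 and heterozygous replicate 1. Erythroid markers summed to 48710.0, 32512 and 7767 and 10739, 41142 and 19616 CPM in the same libraries and were lowest in the same 2. The pancreas markers of spleen given above were also lowest in those 2 libraries, so the pattern is not particular to erythroid genes. Gstt1 in spleen, at 6.80, 6.63 and 2.15 CPM in WT and 5.20, 7.62 and 4.21 CPM in heterozygous libraries, was also lowest in WT replicate 3. The part of erythroid or pancreatic cells in these values was not tested.

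Against this wide range between tissues, no member passed the test of genotype in any tissue. In edgeR's quasi-likelihood test with Benjamini-Hochberg adjustment, 0 of 10 members were called in kidney and in liver, and 0 of the 9 tested in brain, muscle and spleen. Few genes of any kind were called: 0.242% of those tested in spleen, 0.0249% in muscle, 0.0211% in kidney, 0.0193% in liver and 0.0157% in brain. Ctcf itself was called in brain only, so a missing call does not show that a level was unchanged. At an unadjusted p under 0.05 there was 1 member in brain (Gstm1), 2 in muscle (Gsta3 and Mgst1) and 0 elsewhere, against 3.52% of all genes in spleen, 2.96% in brain, 6.45% in muscle, 6.44% in kidney and 4.56% in liver. limma-voom also called 0 members in every tissue, and DESeq2 called Gsta3 and Mgst1 in muscle and 0 elsewhere. DESeq2 called more genes of any kind than edgeR, with 28 against 3 in brain, 164 against 4 in kidney and 73 against 3 in liver. Gstm3 was filtered out for low counts in brain, muscle and spleen.

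**Figure D3:**
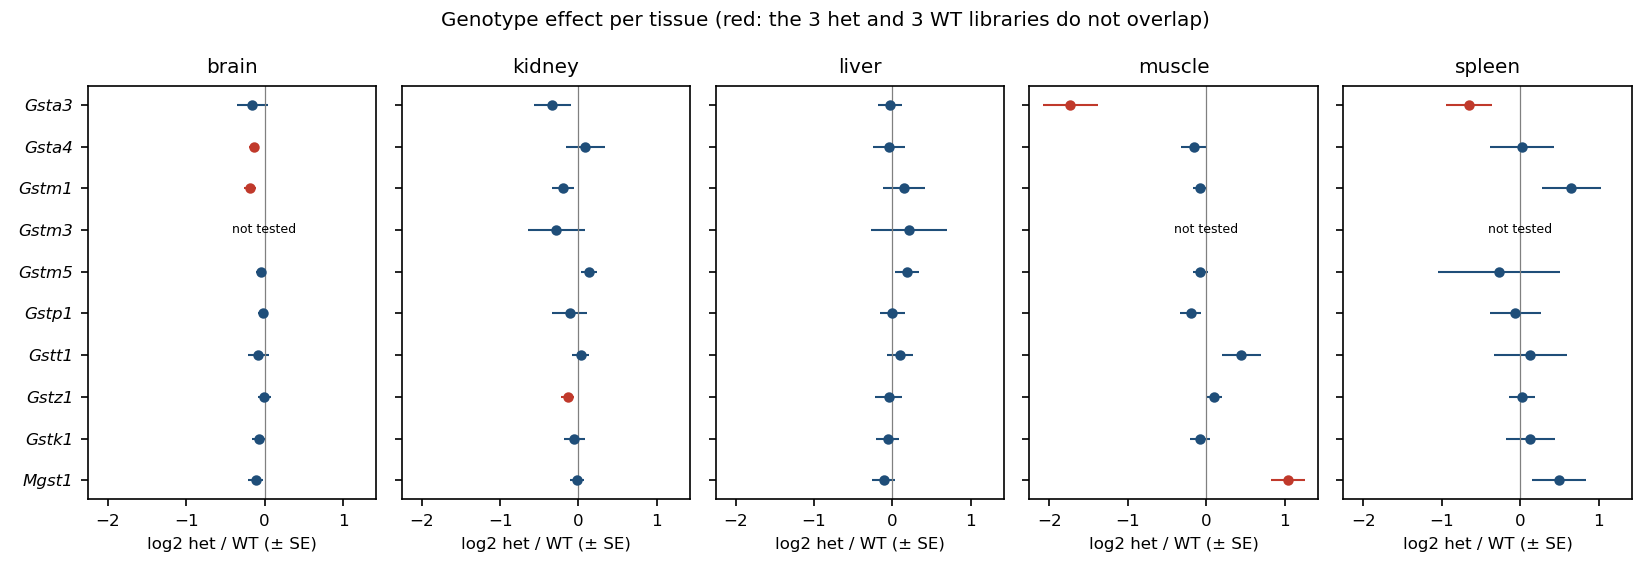
Log2 ratio of heterozygous over WT level with its SE, for the 10 genes (rows) in 5 tissues (panels), from edgeR on 3 against 3 libraries. Red marks genes whose groups did not overlap. Nearly all points lie within 0.5 of 0, and Gsta3 and Mgst1 in muscle lie farthest out.

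In brain each of the 9 tested members had a log2 difference below 0 in the fit of that tissue alone, from -0.19 to -0.0045, with a median of -0.08 against -0.0043 over all genes. The sign was not stable for 4 of them: Gstm5, Gstp1 and Gstz1 were above 0 in the fit of all 30 libraries, and Gstt1 and Gstz1 without WT replicate 3. Gstm1 was at 259.6, 253 and 292 CPM in WT and 243, 218 and 245 CPM in heterozygous brain. Its groups did not overlap, and its log2 difference was -0.19 (SE 0.077), adjusted p = 0.99999 in edgeR. Gsta4 was at 39.9, 44.2 and 43.8 CPM in WT and 39.2, 39.5 and 37.9 CPM in heterozygous brain, also without overlap and also not called, at -0.13 (SE 0.066). Non-overlapping groups were found for 7.83% of all genes in brain, beside 2 of the 9 members. In kidney only Gstz1 had groups that did not overlap (268, 292 and 293 CPM in WT and 264, 251 and 259.7 CPM in heterozygous libraries, log2 -0.14 (SE 0.084)), against 11.4% of all genes, and its adjusted p was 0.929 in edgeR. With replicate number as a block, which pairs the libraries in brain and kidney, no member was called in either tissue. In liver no member's groups were apart, against 8.99% of all genes, and the log2 differences ran from -0.11 (Mgst1) to 0.21 (Gstm3, SE 0.48).

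Muscle held the 2 largest differences, in opposite directions. Mgst1 was at 6.59, 5.59 and 4.39 CPM in WT and 14.7, 8.99 and 10.4 CPM in heterozygous muscle. The heterozygous libraries were all higher, by 1.04 (SE 0.22) on the log2 scale, with adjusted p = 0.306 in edgeR, which is not a call. It was called by DESeq2 (adjusted p = 0.00157), by edgeR with a filter of 1 count (0.0498) and in the fit of all 30 libraries (0.0244). The fit of all 30 libraries called 229 genes of any kind in muscle, against 4 in the fit of muscle alone. The 6 fits that left out 1 library did not call Mgst1 (adjusted p 0.252 to 0.675). Adipocyte markers differed in the same libraries. Adipoq, the fat cell hormone adiponectin, was at 7.90, 7.06 and 2.36 CPM in WT and 36.5, 12.8 and 22.8 CPM in heterozygous muscle. Plin1 and Cidec, which coat lipid droplets, were also higher without overlap, while Lep and Fabp4 overlapped between groups, and none of the 5 markers was called. The summed adipocyte markers were 289, 240.4 and 165 CPM in WT and 452, 284 and 355 CPM in heterozygous libraries. Among heterozygous libraries replicate 1 was highest and replicate 2 lowest for Mgst1 and Adipoq alike, and the part of fat cells in the Mgst1 difference was not tested.

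**Figure D4:**
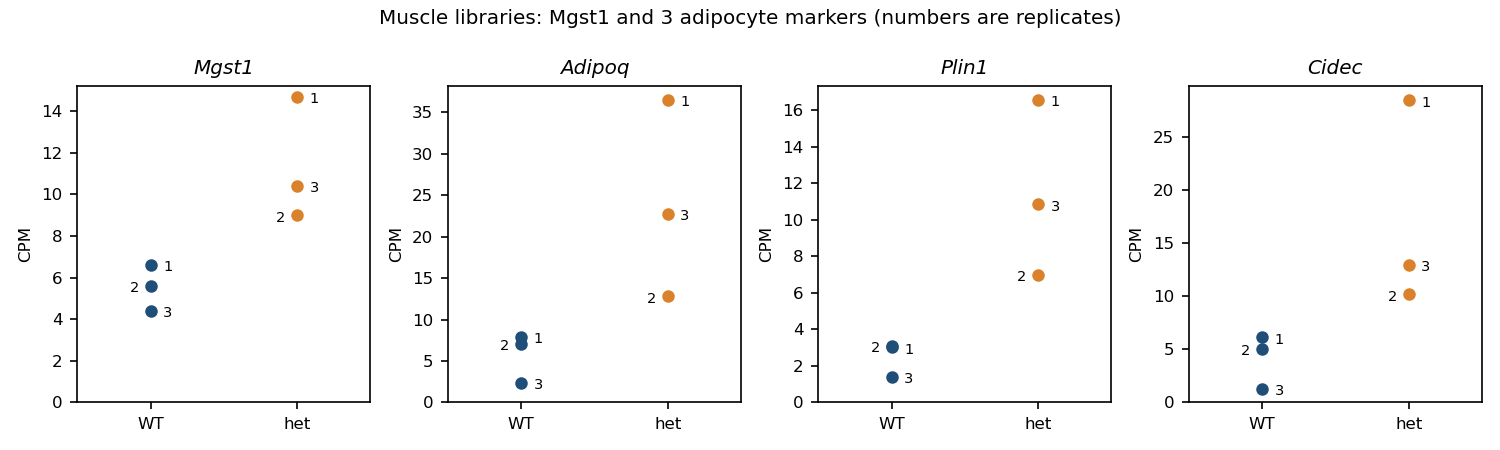
Mgst1 and the adipocyte markers Adipoq, Plin1 and Cidec in the 6 muscle libraries, as CPM scaled within the tissue. Numbers are replicates. In each panel the 3 heterozygous libraries lie above the 3 WT libraries, with heterozygous replicate 1 on top.

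Gsta3 went the other way in muscle, from a low level: the WT libraries held 38, 40 and 39 fragments and the heterozygous libraries 10, 8 and 15, or 0.365, 0.387 and 0.427 against 0.0986, 0.0921 and 0.160 CPM. The log2 difference was -1.74 (SE 0.35), adjusted p = 0.279 in edgeR and 0.0431 in DESeq2, and 0.00303 in the fit of all 30 libraries. Non-overlapping groups, as for Mgst1 and Gsta3, were found for 12.2% of all genes in muscle. Kidney markers were also higher in WT muscle, at 9.65, 69.5 and 9.53 CPM summed against 0.0986, 0.138 and 5.45 CPM, and the groups did not overlap. Between genotypes the kidney markers differed by 0.226% of their level in WT kidney and Gsta3 by 0.410% of its own. WT replicate 2 carried most of these markers, and without it, a choice made after seeing the data, the values were 0.0632% for the markers and 0.415% for Gsta3. In spleen Gsta3 was at 0.715, 0.805 and 1.03 CPM in WT and 0.620, 0.537 and 0.460 CPM in heterozygous libraries, without overlap (6.64% of all genes), at -0.66 (SE 0.29) and adjusted p = 0.99997 in edgeR. Liver markers were at 42.5, 33.3 and 33.1 CPM summed in WT spleen and 0.0900, 0.344 and 0.240 CPM in heterozygous spleen. The marker difference was 0.00937% of the WT liver level and the Gsta3 difference 0.00990% of its own liver level. Gstm3 in spleen had 3, 6 and 4 fragments in WT and 0 in each heterozygous library, too few to test. From those few fragments the Gstm3 difference was 0.042% of its own liver level, above the 0.00937% of the markers. The part of these traces in the Gsta3 and Gstm3 values was not tested.

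A genotype effect shared by the 5 tissues was fitted over the 30 libraries, where 0 of 10 members were called (0.194% of all genes were). That fit takes the libraries as independent although the tissues came from 3 mice of each genotype, so its p-values may be too small. An alternative limma-voom fit let genotype and replicate number stand for the mouse, which no label states. It gave -0.18 for Gsta3 and 0.14 for Mgst1. Gsta3 had the largest estimate, -0.45 (SE 0.14, adjusted p = 0.313 in edgeR), which was -0.19 in limma-voom and -0.26 without muscle. It had a log2 difference below 0 in all 5 tissues, as had Gstp1. Mgst1 was at 0.27 (SE 0.13) and at 0.078 without muscle. The other 8 genes lay between -0.14 (Gstm3) and 0.14 (Gstt1). The Gstm3 value was -0.81 by DESeq2 and -0.97 without liver, the tissue with most of its fragments. A test of whether the effect differed between tissues called 0 of 10 (0.758% of all genes), with Gsta3 nearest at adjusted p = 0.0969 and Mgst1 at 0.310 in edgeR. DESeq2 called both in that test, where it called 734 genes of any kind against 184 by edgeR. At unadjusted p under 0.05 the shared test held Gsta3 and Mgst1, against 5.91% of all genes, and the tissue test the same 2 genes, against 6.66%. Gstz1 was the most tightly measured, with a shared difference of 0.0048 (SE 0.053).

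No class share passed the test of genotype either. Over 35 comparisons of class and tissue, no adjusted p of the 2-sided exact permutation test was below 0.875, and 3 against 3 libraries cannot give a raw p below 0.1. Groups did not overlap in 4 of the 35. Without any genotype effect 3 against 3 libraries are apart with a probability of 0.1, and the count is near that share. The shares of a library are parts of the same sum, so they are not independent. The pi share of spleen was 71.0, 68.9 and 74.5% in WT and 67.1, 68.6 and 66.3% in heterozygous libraries. The microsomal share of muscle was 0.624, 0.619 and 0.495% in WT and 1.84, 1.03 and 1.10% in heterozygous libraries, which follows the Mgst1 values above. The zeta share of brain and the theta share of liver were higher in the heterozygous libraries, by 0.308 and 0.379 percentage points. Over the 28 genes of the wider family, the groups overlapped for pi in spleen, microsomal in muscle and zeta in brain. Theta in liver stayed apart, and theta and zeta in muscle were then apart as well.

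Among 21 other transferase and related membrane genes found in the tables, 2 passed the test of an effect shared by tissues. The limit of that fit given above, that libraries of a mouse are taken as independent, holds for both. Gstm6 (chr3:107938847-107943749, minus strand), a mu gene beside Gstm3 in the cluster, fell with a shared log2 difference of -0.79 (SE 0.14, adjusted p = 0.0112 in edgeR). It was at 8.71, 9.35 and 8.48 CPM in WT and 5.47, 5.35 and 5.65 CPM in heterozygous brain, 1.80, 2.10 and 2.39 against 1.15, 1.10 and 1.08 CPM in kidney, and 86.5, 104 and 101.3 against 34.6, 37.7 and 83.9 CPM in liver. The groups were apart in each of these 3 tissues, with heterozygous liver replicate 3 close to WT. In brain alone its adjusted p was 0.201, and 0.0111 with the replicate block, which is a call. In kidney and liver alone edgeR gave 0.255 and 0.947, which are not calls. DESeq2 called Gstm6 in brain (adjusted p = 8.51e-07) and kidney (0.00714). Without heterozygous replicate 3 edgeR called it in liver, at -1.43 (adjusted p = 0.0337). The shared call was lost without brain (adjusted p = 0.0817), kidney (0.211) or liver (0.279), and without the libraries numbered 1 (0.506) or 2 (0.212). Of the mu genes on either side of it, Gstm7 had no called difference in brain, kidney or liver by edgeR, and Gstm3 had none in kidney or liver and was not tested in brain. Gstm6 itself was called in these tissues only in the settings given above. Gstm7 also pointed down, with a shared log2 difference of -0.33 (SE 0.11, adjusted p = 0.375 in edgeR). In brain its groups were apart, at 27.4, 27.0 and 27.8 CPM in WT and 25.4, 21.2 and 24.9 CPM in heterozygous libraries (7.83% of all genes were apart).

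Gsto2 (chr19:47865545-47886324, plus strand), an omega class gene whose enzyme reduces dehydroascorbate, rose in the shared test, with a log2 difference of 1.29 (SE 0.15, adjusted p = 1.56e-05 in edgeR). It was called under each of the 14 alternatives run, the fit with a stand-in for the mouse among them. Gsto2 levels were low: 1.26, 1.03 and 0.908 CPM in WT and 1.55, 1.54 and 1.82 CPM in heterozygous brain, and 2.98, 3.05 and 3.15 against 5.17, 4.59 and 6.54 CPM in kidney. Liver held 0.266, 0.191 and 0.377 CPM in WT and 0.847, 1.16 and 1.55 CPM in heterozygous libraries, muscle 0.144, 0.116 and 0.175 against 0.424, 0.391 and 0.428 CPM, and spleen 0.190, 0.0961 and 0.161 against 0.570, 0.386 and 0.460 CPM. The heterozygous libraries were above all WT libraries in each of the 5 tissues. Within single tissues it was not called by edgeR, with the smallest adjusted p of 0.246 in kidney, where DESeq2 called it (adjusted p = 0.00103). The test of a difference between tissues gave adjusted p = 0.200.

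**Figure D5:**
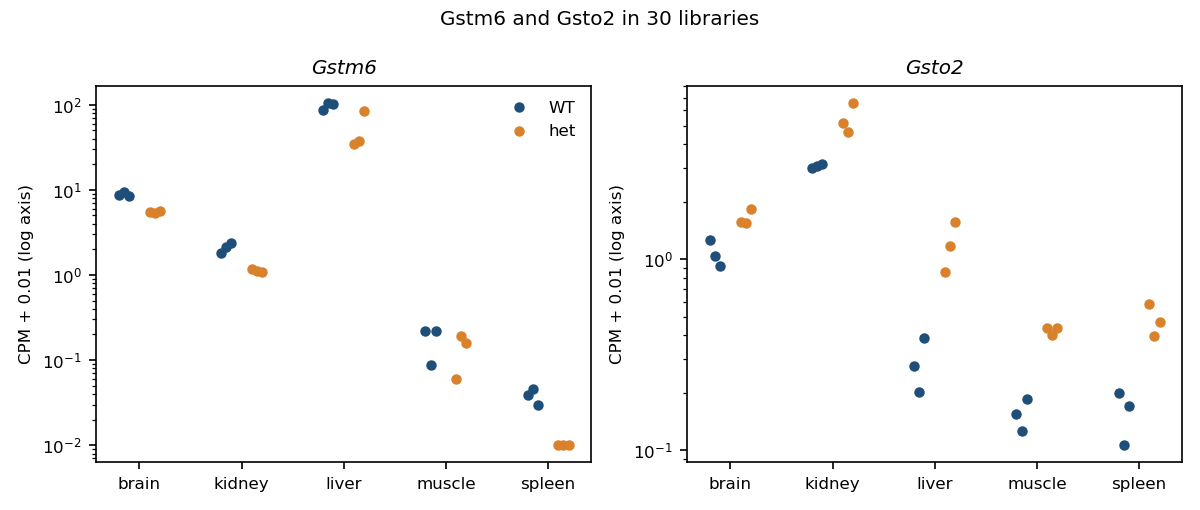
Gstm6 and Gsto2 in 30 libraries, as CPM + 0.01 on a log axis, WT in blue and heterozygous in orange. Gsto2 is higher in all heterozygous libraries of each tissue, and Gstm6 is lower in those of brain, kidney and liver.

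The wider glutathione pathway was read from lists of genes for glutathione synthesis and breakdown (18 genes), peroxidases and reductase (16), conjugate export (7), NRF2 regulators (10) and NRF2 targets (18). In the fits of each tissue alone with genotype only and the standard filter, edgeR called 1 gene of all lists. This was the plasma glutathione peroxidase Gpx3, which was higher in heterozygous spleen. It was at 4.80, 2.70 and 2.99 CPM in WT and 13.2, 17.7 and 17.7 CPM in heterozygous spleen, log2 2.21 (SE 0.28), adjusted p = 0.0489. The call was lost when any 1 of the 6 libraries was left out (adjusted p 0.105 to 0.306). Gpx3 is abundant in kidney, at 14793 CPM in WT kidney on the 30-library scale, and kidney markers were 0.423, 0.168 and 0.312 CPM in WT spleen and 11.4, 23.1 and 22.8 CPM in heterozygous spleen. The marker difference was 0.0670% of the WT kidney level, and the Gpx3 difference was 0.0596% of its own. Gsta2, an alpha gene highest in kidney, was likewise higher in heterozygous spleen (0.0292, 0.144 and 0.0503 against 0.280, 0.551 and 0.522 CPM) and lower in heterozygous muscle (0.346, 2.12 and 0.373 against 0.00986, 0.0576 and 0.107 CPM), without overlap in either tissue. In the fits of each tissue alone with genotype only, edgeR did not call these Gsta2 differences. Those differences were 0.0526% and 0.285% of its kidney level, beside marker differences of 0.0670% and 0.226%. Without WT muscle replicate 2 the muscle values were 0.0968% for Gsta2 and 0.0632% for the markers. The part of kidney RNA in these differences was not tested. The test of a difference between tissues called Gpx3 (adjusted p = 0.00230) and Gsta2 (0.0316), and both calls were lost without spleen or without the libraries of any 1 replicate number.

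No listed target of NRF2 was called by edgeR in the fits of each tissue alone with genotype only and the standard filter. Of 18 listed targets, 18 were tested in brain and kidney and 17 in liver, muscle and spleen, and 0 of the 18 were called in the shared test. Their median log2 difference ran from -0.055 (kidney) to 0.067 (muscle), against medians from -0.011 to 0.00022 over all genes. At an unadjusted p under 0.05 there were 5 in muscle (6.45% of all genes), 2 in kidney (6.44%), 1 in liver (4.56%) and 0 in brain (2.96%) and spleen (3.52%). The largest was transketolase (Tkt), a pentose phosphate enzyme, at 11.6, 13.6 and 11.5 CPM in WT and 21.8, 27.0 and 42.8 CPM in heterozygous muscle (log2 1.32 (SE 0.23), adjusted p = 0.233 in edgeR). Other settings called it: DESeq2 (adjusted p = 2.29e-05), edgeR with a filter of 1 count (0.0114), edgeR with replicate number as a block (0.0238) and the fit of all 30 libraries (0.00266). The heterozygous muscle libraries are those with higher adipocyte markers, but the replicates ranked differently. Tkt was lowest in heterozygous replicate 1 and highest in replicate 3, while Adipoq was highest in replicate 1 and lowest in replicate 2. The part of fat cells in the Tkt difference was not tested. NRF2 regulators, including Nfe2l2 and its inhibitor Keap1, had 10 of 10 tested and 0 called in each tissue. Glutathione synthesis and breakdown and conjugate export also had 0 called in each tissue.

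The other listed genes that the naming rule selected were not called by edgeR in the fits of each tissue alone with genotype only. Abcc6, an efflux transporter, was at 0.922, 0.812 and 0.606 CPM in WT and 1.48, 1.33 and 0.998 CPM in heterozygous brain (adjusted p = 0.99999 in edgeR). The test of a difference between tissues called it (adjusted p = 0.0165), a call lost without brain, without spleen or without the libraries of any 1 replicate number (0.0540 to 0.429). Abcc4, which exports conjugates and nucleotides, was at 2.77, 4.68 and 4.31 against 5.09, 4.86 and 6.73 CPM in liver (log2 0.50 (SE 0.24)). Gstm7, the next mu gene beyond Gstm6, was at 4.07, 3.61 and 2.55 against 1.70, 1.98 and 1.26 CPM in muscle (log2 -1.05 (SE 0.24), adjusted p = 0.346 in edgeR). DESeq2 (adjusted p = 0.00744), edgeR with replicate number as a block (0.0366) and the fit of all 30 libraries (0.00782) called Gstm7 there. Gstt3, a theta gene, was at 1.08, 0.949 and 1.34 against 2.90, 1.35 and 1.48 CPM in spleen (log2 0.77 (SE 0.37)).

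The other family members complete the tissue map. Alpha gene Gsta2 was the kidney counterpart of Gsta3, at 422 ± 104 FPKM in WT kidney and 18.5 ± 13.0 in liver (SD, n = 3). Gstm2 was highest in muscle at 101.6 ± 5.84 FPKM and close to that in liver (93.4 ± 25.8). Mgst3, a membrane relative of Mgst1, was highest in muscle at 208 ± 81.5 FPKM. Gstp3 was read in liver (75.4 ± 13.1 FPKM) and spleen (16.7 ± 5.49 FPKM), and Mgst2 was at 7.21 ± 0.768 FPKM in spleen and at or under 0.152 elsewhere. In spleen Mgst2 and Gstp3 were therefore at levels like those of Mgst1 (5.44 ± 2.09 FPKM) or above.

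Among themselves, the liver-high genes followed each other most closely over the 30 libraries. Pearson's r of log2(CPM + 1) was 0.985 for Gsta3 with Gstt1 and 0.976 for Gstt1 with Gstz1, and lowest for Gstm3 with Gstm5, at -0.377. These libraries share 5 tissues, so r mostly reflects the order of tissue levels and is given as a description. By the same measure over 15993 genes, the genes most like Gsta3 were Hpd (r = 0.998) and Gm5524 (r = 0.998), those most like Gstm3 Ugt1a5 (r = 0.998) and Hamp2 (r = 0.998), and those most like Gstz1 Col18a1 (r = 0.993) and Tmem205 (r = 0.993). For Mgst1 they were Gnmt (r = 0.993) and Baat (r = 0.991), for Gstk1 Pxmp2 (r = 0.995) and Echs1 (r = 0.993) and for Gstm1 Dgat2 (r = 0.987) and Pcsk6 (r = 0.983). For the genes that were not highest in liver they were Pter (r = 0.984) and C130074G19Rik (r = 0.977) with Gsta4, Asna1 (r = 0.962) and Macrod2 (r = 0.956) with Gstm5, and Psmb6 (r = 0.981) and 1110012L19Rik (r = 0.975) with Gstp1. Gstm5 had the fewest near matches, with 5 genes above an r of 0.95, against 335 for Gstm3.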

How the data were processed

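RNA-seq libraries of 5 tissues were made from TRIzol-extracted total RNA, per the labels' protocols. The 5 tables deposited by the authors hold raw counts of fragments for each gene. They come from featureCounts 1.5.0-p3, run on exons of GRCm38 annotation release 86, without strand and without fragments that fit several places or genes, per the file headers. FastQC, STAR and DESeq2 are named in the submitters' processing notes. Read length is not given in the sources used here.

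From these counts, edgeR 4.0.16 in R 4.3.3 (filterByExpr, TMM, quasi-likelihood F-test, Benjamini-Hochberg adjustment over all genes tested) compared genotypes within each tissue, over tissues (shared effect and tissue by genotype interaction) and WT tissues with each other. A gene is called at an adjusted p under 0.05. FPKM divides TMM-scaled CPM by the tables' exon length. Log2 differences are heterozygous minus WT with the SE of the coefficient. Single shares used a 2-sided exact permutation test. DESeq2 1.42.0 and limma-voom 3.58.1 were alternatives. Scripts were tested on simulated counts.

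Depth was 49.8 M to 131.6 M fragments per library, and 3 counts, the limit that a count of 0 allows, are 0.0228 to 0.0602 CPM, for counting error only. No pair of replicates was as close as sampling noise. Replicate numbers paired WT and heterozygous libraries in brain (r = 0.327, 0.542 and 0.687 for deviations from the group means) and kidney (r = 0.309, 0.231 and 0.233), but not in the other tissues. Besides the 10 genes, listed genes were named when called, plus up to 2 per tissue with the largest difference among those with non-overlapping groups and a mean of at least 1 CPM, and for each of the 10 the 2 genes with the highest r (for Gstt1 these are not reported here). The members and lists were chosen with earlier results of these data known. Promoters are from RefSeq (GRCm38.p6). Windows that reach well into the tables' gene models were not printed.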

Additional observations from a re-analysis of the deposited data

Results flagged for a closer look

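The test of a tissue by genotype interaction passed the threshold for 3 genes of the wider lists and for none of the 10 members. Gpx3 had adjusted p = 0.0023 in edgeR. It was higher in heterozygous spleen (3 of 3 libraries above all WT libraries) and overlapped between genotypes in the other 4 tissues. Without the libraries numbered 1, 2 or 3 the adjusted p was 0.0681, 0.518 and 0.0562, and without spleen it was 1. Gsta2 had adjusted p = 0.0316, with 3 of 3 heterozygous libraries lower in muscle and 3 of 3 higher in spleen, and the adjusted p was 0.235, 0.9003 and 0.166 without the libraries numbered 1, 2 or 3. It was 0.257 in limma-voom. Abcc6 had adjusted p = 0.0165. Its heterozygous libraries were higher without overlap in brain and liver and lower without overlap in muscle and spleen, where it was filtered out of the single-tissue tests at 0.144, 0.0484 and 0.0219 CPM in WT muscle and 0.102, 0.0360 and 0.101 CPM in WT spleen. Its adjusted p was 0.256, 0.429 and 0.156 without the libraries numbered 1, 2 or 3. Traces of kidney and liver markers differ between genotypes in muscle and spleen, with values given in the report, and their part in these 3 results was not tested.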

How the results depend on the processing

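The count of members called between genotypes stayed at 0 in brain, kidney, liver and spleen under each alternative run. In muscle it was 2 by DESeq2 and in the fit of all 30 libraries (Gsta3 and Mgst1), and 1 with a filter of 1 count (Mgst1). For the difference between tissues it was 2 by DESeq2 (Gsta3 and Mgst1) and 1 without kidney (Gsta3, adjusted p = 0.0194). The 82 called contrasts between WT tissues ranged from 75 (10 counts in every library) to 88 (total counts). With total counts 9 of the 100 contrasts took the other sign: brain minus muscle became 1.27 for Gstm5, 0.83 for Gstm1, 0.91 for Mgst1 and 0.39 for Gstz1, kidney minus muscle became 0.75 for Gstk1, muscle minus spleen became -1.13 for Gsta3 and -0.32 for Gstt1, and Gstm5 became -0.41 for liver minus spleen and 0.053 for brain minus kidney (log2). That scaling shifts whole tissues, by the amounts given in the report. Class shares whose groups did not overlap were 4 of 35, and 5 to 10 when 1 library was left out, which leaves fewer values to overlap. Counts over all genes depended most on the setting: spleen had 45 (0 to 250), brain 3 (0 to 28), muscle 4 (1 to 229), kidney 4 (2 to 164) and liver 3 (1 to 73), with 47 shared (5 to 153) and 184 that differed between tissues (2 to 734). At counts like those of Gstm3 outside liver and kidney, or of Gsta3 in muscle, depth limits what can be detected.

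With replicate number as a block, which pairs the libraries in brain and kidney, the member counts were 0 in both tissues, and the Gstm6 call in brain was the one change among named genes there. In liver (r = 0.0428, 0.117 and 0.286), muscle (0.0839, 0.336 and 0.450) and spleen (-0.559, -0.148 and 0.399) libraries share only a number. There the block gave 0 members in liver, 1 in muscle (Mgst1, adjusted p = 0.0212) and 0 in spleen, and the Gpx3 call in spleen was not made (adjusted p = 0.393). Among the other named genes the block called Tkt (0.0238), Gstm7 (0.0366) and Gsta2 (0.0420) in muscle. In 13 of the 35 class shares all 3 numbered pairs differed one way. That count was not tested, and 3 pairs often differ one way without any genotype effect. Between WT tissues the block gave 83 called contrasts, with Mgst1 higher in spleen than in brain (-0.46, adjusted p = 0.0446).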
